A study of Homo sapiens with 12 samples.

Results

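The protein-coding genes of chromosome 20 (GRCh38) were examined in SUDHL16 cells with acquired venetoclax resistance, and in SUDHL6 cells for contrast. Genes were kept when their mean level was at least 5 CPM (counts scaled to the total of the library) across the 5 SUDHL16 libraries other than CE-26, a parental library that stood apart. Of 537 protein-coding genes on the chromosome, 277 reached this minimum and 13 of these were left out by name, among them BCL2L1, PCNA, AURKA and 2 proteasome genes. The remaining 264 genes are the members described here, out of 9743 protein-coding genes at the same minimum on all chromosomes. The members were chosen by position and level. The chromosome was chosen by the log2 ratios of resistant to parental SUDHL16 libraries, which ran higher there. The SUDHL16 values are therefore a description, with standard errors (SE), and no p-value of a member is given. Counts of SUDHL16 members called or under a p limit are likewise a description, and no test of the members or of a list. The SUDHL6 values had no part in the choice and are given with tests.

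SUDHL6 and SUDHL16 are human cell lines of diffuse large B-cell lymphoma (DLBCL), and venetoclax (ABT-199) is an inhibitor of the anti-apoptotic protein BCL2. Each parental line was grown in rising venetoclax concentrations until the cells could grow in at least 10 times the original IC50. By the paper, resistant lines then stayed under the drug, and cells of both kinds were moved to fresh media for experiments. Effects of this exposure and of resistance cannot be told apart. RNA-sequencing compared parental and resistant cells to find pathways that differ with resistance. The 4 groups were SUDHL6-parental, SUDHL6-resistant, SUDHL16-parental and SUDHL16-resistant, with 3 libraries each, or 12 in all. Each resistant line is a single derived line, and the labels do not say whether libraries came from separate cultures, so p-values measure the spread between these libraries, which may be technical. The lines also differed in library kit (NEBNext for SUDHL6, a stranded, ribosomal RNA-depleted kit for SUDHL16) and in sequencer, which cannot be told apart from the line itself.

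Chromosome 20 is a small, gene-rich autosome. Its long arm holds genes of very different function side by side, such as the kinase SRC, the Polycomb-associated regulator ASXL1, the transcription factors MYBL2 and CEBPB, and the imprinted GNAS locus. Long-arm genes such as NCOA3, ZNF217 and BCAS1 are best known from carcinomas, where this arm is often present in extra copies. DNA was not measured in these libraries.

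The library CE-26 (SUDHL16-parental) had a total count of 4131927, against 14335460 to 22068221 in the other SUDHL16 libraries and 33992784 to 40885665 in SUDHL6. In CE-26, 55.4% of counts were on protein-coding genes and 31.9% on identifiers not found in the annotation, against 84.3% to 90.2% and 1.61% to 5.06% in the other SUDHL16 libraries. Most medians and counts over members in SUDHL16 are therefore given with and without CE-26. So is the ratio of a named gene where its sign changes without that library. The 5 B-cell markers examined (MS4A1, CD79A, CD79B, PAX5 and CD22) were detected in every group, with summed levels of 1580 to 4030 CPM. Of the other marker lists, the 5 fibroblast genes summed to 21.1 to 34.6 CPM in the parental SUDHL16 libraries, where COL1A1 was at 0 and DCN reached 21.5 CPM, and to at most 0.547 CPM in the resistant libraries. The 5 T-cell genes summed to 1.62 to 11.6 CPM in parental and 12.5 to 14.5 CPM in resistant SUDHL16 libraries, where CD2 and CD3D were at 0 and CD3E reached 14.1 CPM. The epithelial and myeloid lists stayed at or under 9.92 and 7.5 CPM in every library. The part of these cells or transcripts in the values below was not tested, and in bulk RNA fewer cells of a type and less RNA per cell cannot be told apart.

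The members spanned the chromosome from C20orf96, which starts at chr20:270863, to PCMTD2, which ends at chr20:64304820. The widest gap between neighbouring members, 5.82 Mb, lay between ZNF337 and HM13 and was taken to divide 81 short-arm members from 183 long-arm members. Promoter sequences are shown for the members that mark the pattern described below, from RefSeq (GRCh38.p14), as the 250 bases before the start of each gene, 5′ to 3′ on the strand of the gene. PREX1 (chr20:48828000-48828249, minus strand) had the highest resistant-to-parental ratio and NAA20 (chr20:20017040-20017289, plus strand) the lowest but for SRC and BCAS1 among members whose groups did not overlap. COMMD7 (chr20:32743468-32743717, minus strand) was higher in both resistant lines. TP53INP2 (chr20:34704094-34704343, plus strand) and TRPC4AP (chr20:35092808-35093057, minus strand) lie on the 2 sides of the 35 Mb window limit. Capitals mark motifs found on either strand, of which the GC box reads GGGCGG. The CCAAT box reads as its name does. The cyclic AMP response element (CRE) reads TGACGTCA.
PREX1: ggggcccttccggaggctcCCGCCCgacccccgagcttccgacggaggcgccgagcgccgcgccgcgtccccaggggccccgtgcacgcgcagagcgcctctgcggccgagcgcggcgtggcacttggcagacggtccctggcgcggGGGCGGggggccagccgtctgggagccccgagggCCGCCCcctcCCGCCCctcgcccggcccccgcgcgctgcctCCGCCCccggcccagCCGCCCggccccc
NAA20: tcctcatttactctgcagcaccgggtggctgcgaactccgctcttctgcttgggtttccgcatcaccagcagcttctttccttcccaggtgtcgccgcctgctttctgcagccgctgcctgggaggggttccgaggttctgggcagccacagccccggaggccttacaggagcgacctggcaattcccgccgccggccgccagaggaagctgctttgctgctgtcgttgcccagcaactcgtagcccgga
COMMD7: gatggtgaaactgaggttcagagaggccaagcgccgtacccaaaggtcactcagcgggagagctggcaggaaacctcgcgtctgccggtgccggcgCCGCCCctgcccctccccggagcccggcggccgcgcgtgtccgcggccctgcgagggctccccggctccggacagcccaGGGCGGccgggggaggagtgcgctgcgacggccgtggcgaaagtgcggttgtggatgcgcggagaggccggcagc
TP53INP2: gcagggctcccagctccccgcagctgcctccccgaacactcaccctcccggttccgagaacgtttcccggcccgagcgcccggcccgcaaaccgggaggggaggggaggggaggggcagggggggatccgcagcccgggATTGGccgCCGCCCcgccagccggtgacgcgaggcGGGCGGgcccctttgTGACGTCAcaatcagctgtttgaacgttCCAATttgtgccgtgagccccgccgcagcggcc
TRPC4AP: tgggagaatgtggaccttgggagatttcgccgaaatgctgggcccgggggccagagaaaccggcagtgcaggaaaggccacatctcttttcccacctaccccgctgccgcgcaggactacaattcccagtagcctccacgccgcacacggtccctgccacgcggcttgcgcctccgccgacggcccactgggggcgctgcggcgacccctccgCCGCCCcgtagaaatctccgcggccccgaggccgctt
The PREX1 window held 6 GC boxes, those of COMMD7 and TP53INP2 held 2 each and that of TRPC4AP held 1, while NAA20 held none of the motifs searched. A match is a description of letters and not a bound site.

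A promoter entry was found for 223 of the 264 members and none for 41, among them GSS, SRC, SLCO4A1 and BCAS1. A GC box was present in 66.8% of member promoters, 68.4% of promoters of genes at the minimum on other chromosomes and 42.6% of all 35116 promoters. A CCAAT box was present in 27.8%, 37.0% and 32% in the same order, and a TATA box (TATAAA) in 3.59%, 4.87% and 10.7%. The E-box (CACGTG) occurred in 9.87% of member promoters, the ETS site (CCGGAAGT) in 9.42%, the NRF1 site (by its name alone) in 4.93% and the CRE in 4.04%, against 9.34%, 8.66%, 2.15% and 3.18% on other chromosomes and 6.34%, 3.42%, 1.03% and 1.65% of all promoters. The median GC content of the windows was 67.6% for members and 64.8% for genes at the minimum on other chromosomes.

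In resistant SUDHL16 cells most members were higher. Ratios are log2 fold changes from edgeR, and where called relative they have the median of all protein-coding genes at the minimum subtracted, which was 0.07 with all libraries and 0.04 without CE-26. The median relative log2 ratio of the 264 members was 0.48, or 1.39-fold, with an interquartile range of 0.14 to 0.95. Of the members, 213 (80.7%) were above 0, against 49.1% of the 9478 other protein-coding genes tested, whose median was -0.01. Without CE-26 the median was 0.53, or 1.44-fold, and 217 members were above 0. A relative ratio of at least 1 (a doubling) was seen for 62 members (23.5%) and 7.62% of other genes, and a ratio of -1 or below for 3 members (1.14%) and 6.59% of other genes. These 3 were SRC, BCAS1 and TMEM230, whose groups overlapped and whose ratio of -1.14 was -0.46 without CE-26.

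Genes were called at a Benjamini-Hochberg adjusted p under 0.05 over all genes tested and a change of at least 1.5-fold. Among all 15708 genes tested, 3.2% were called higher and 2.1% lower in resistant SUDHL16, and among the members 37 were called higher and 2 lower. Without CE-26 these shares were 6.73% and 3.32% of 16280 genes, and 61 members were called higher and 2 lower. The same 2 members, SRC and BCAS1, were called lower in both. The resistant and parental libraries did not overlap, with the resistant libraries higher, for 14.6% of all genes tested and for 121 members, and with the resistant libraries lower for 11.9% of genes and 6 members. Without CE-26 the shares were 22.4% and 19.8%, with 153 members higher and 15 lower. Nothing is read from these counts, since the same contrast chose the chromosome.

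The shift was present in each resistant library. Each library was set against the mean of parental CE-25 and CE-27, and the median over members of this log2 difference, relative to all protein-coding genes at the minimum, was 0.55 in CE-28, 0.42 in CE-29 and 0.58 in CE-30. It was -0.04 in CE-25, 0.02 in CE-26 and 0.04 in CE-27. The parental and resistant libraries thus did not overlap, which is a description, since this contrast chose the chromosome. CE-25 and CE-27 made up the reference, so they lie on both sides of 0 by construction, and CE-26 lay between them. With CE-26 in the parental mean, the resistant libraries were at 0.55, 0.47 and 0.55.

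As a share of all counts on protein-coding genes with at least 5 CPM, the members took 2.09%, 2.11% and 2.17% in the parental SUDHL16 libraries and 3.22%, 2.98% and 3.07% in the resistant libraries. The means were 2.12% ± 0.0416 and 3.09% ± 0.121 (SD, n = 3), a description of the values that chose the chromosome. In SUDHL6 the members took 1.96% ± 0.00577 in parental and 1.94% ± 0.00577 in resistant libraries (SD, n = 3).

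**Figure D1:**
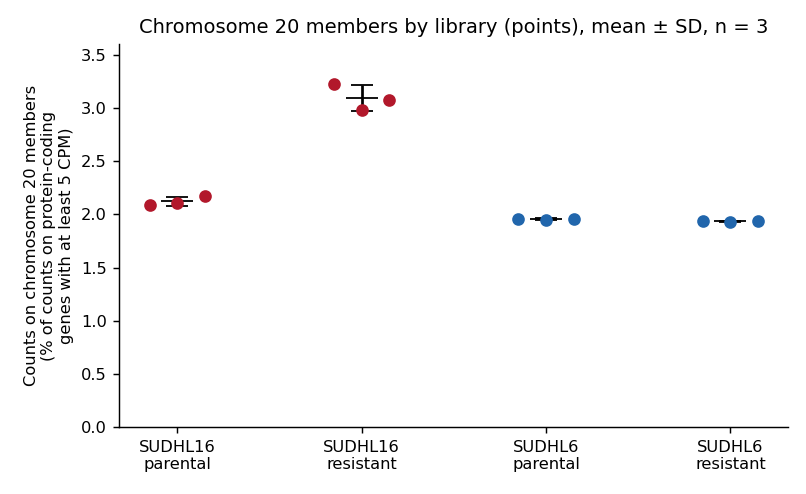
Counts on chromosome 20 members as a percentage of the counts on all protein-coding genes with at least 5 CPM (y axis), in each of the 12 libraries (points), with group mean and SD (bars, n = 3). Resistant SUDHL16 libraries sit between 2.98% and 3.22%, above the parental libraries at 2.09% to 2.17%, while both SUDHL6 groups lie between 1.93% and 1.96%.

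Chromosome 20 had the highest median of the 23 chromosomes in SUDHL16, as its choice implies. The medians of the others ran from -0.15 (chromosome 4) to 0.26 (chromosome 7) with all libraries and from -0.14 to 0.25 without CE-26. In SUDHL6 the members had a median of -0.03, which placed chromosome 20 at rank 18, between extremes of -0.26 (chromosome 18) and 0.05 (chromosome 19).

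**Figure D2:**
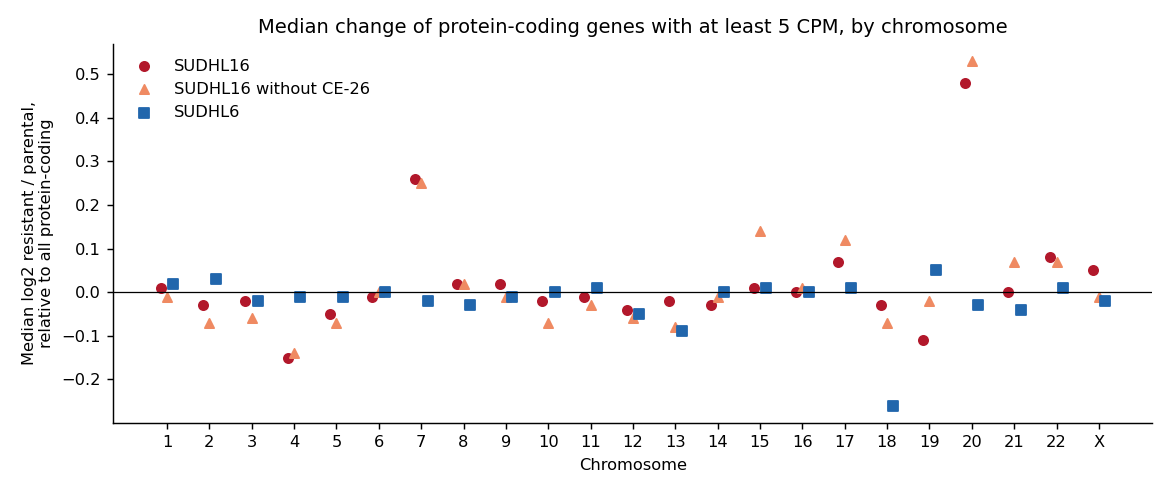
Median relative log2 ratio of resistant to parental libraries (y axis) for the protein-coding genes with at least 5 CPM on each chromosome (x axis), for SUDHL16 with all libraries (circles), SUDHL16 without CE-26 (triangles) and SUDHL6 (squares). Chromosome 20 is at 0.48 and 0.53 in SUDHL16 and at -0.03 in SUDHL6. For chromosome 20 only the 264 members enter.

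The ratios were not even along the chromosome. The short arm had a median of 0.34, with 59 of 81 members above 0 and 10 called higher, and the long arm 0.55, with 154 of 183 above 0, 27 called higher and 2 lower. Without CE-26 the arms were at 0.38 and 0.59, with 59 and 158 members above 0 and 18 and 43 called higher. Over all genes tested, 3.2% were called higher and 2.1% lower with all libraries, and 6.73% and 3.32% without CE-26. In windows of 5 Mb, the medians were highest between 30 and 35 Mb (0.96, 28 members), between 0 and 5 Mb (0.68, 36 members) and between 60 and 65 Mb (0.68, 41 members). Between 5 and 30 Mb the 45 members had a median of 0.16, with 27 above 0, and between 35 and 40 Mb the 35 members had a median of 0.21, with 25 above 0. From 40 to 65 Mb the 120 members had a median of 0.55, and 102 of them were above 0. These stretches were set after the window values were seen.

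Without CE-26 the medians of the 5 stretches, in order, were 0.79, 0.23, 0.98, 0.21 and 0.60. The members above 0 then numbered 30, 29, 27, 25 and 106, and the window from 60 to 65 Mb was at 0.65. The 3 resistant libraries were at 1.02, 0.76 and 0.81 in the first stretch, at 0.19, 0.09 and 0.29 in the second, at 0.97, 0.97 and 0.94 between 30 and 35 Mb, at 0.16, 0.22 and 0.10 in the fourth and at 0.63, 0.43 and 0.65 in the last, against the mean of CE-25 and CE-27. The order of the stretches was thus nearly the same in each resistant library, with the stretches from 0 to 5 Mb and from 30 to 35 Mb on top. CE-26 itself stood at 0.34 in the second stretch, above all 3 resistant libraries, and between -0.12 and -0.05 in the other 4. The median GC content of the transcripts was 45.3% in that stretch and 51.6% to 55.0% in the others. Taken within classes of GC content and transcript length, the medians of the stretches were 0.66, 0.10, 0.90, 0.18 and 0.53.

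**Figure D3:**
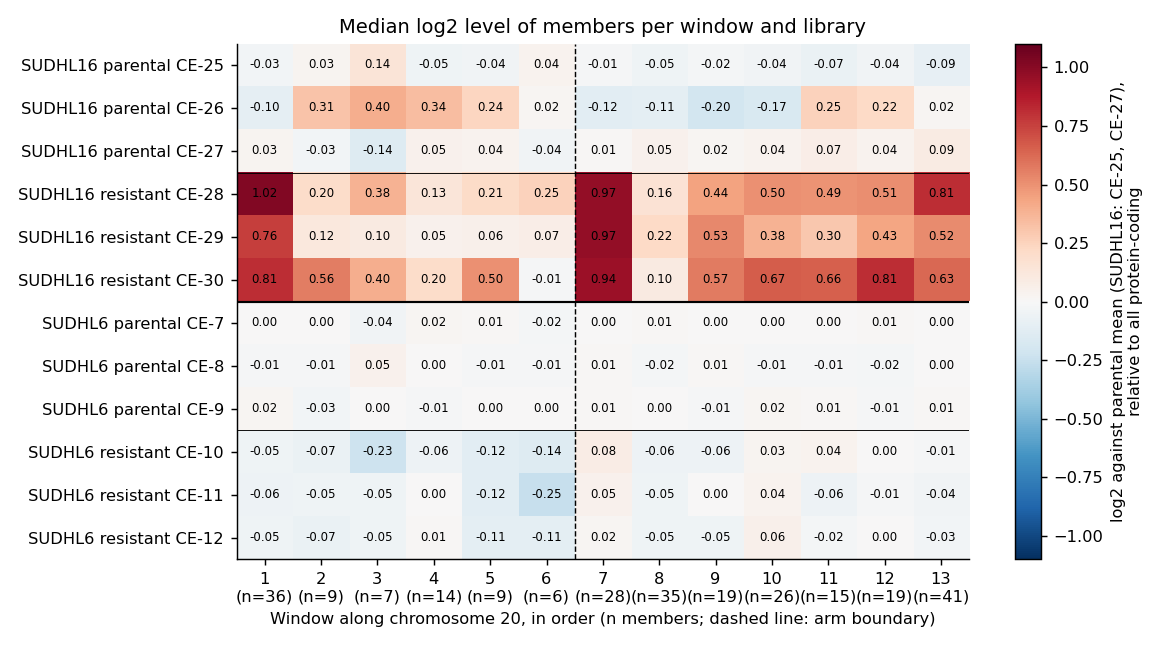
Median log2 level of the members in each of 13 windows of 5 Mb (x axis, in order along the chromosome, with the number of members) in each library (rows), against the mean of the parental libraries (CE-25 and CE-27 for SUDHL16) and relative to all protein-coding genes at the CPM minimum. In the 3 resistant SUDHL16 libraries windows 1 and 7 are at 0.76 to 1.02 and 0.94 to 0.97, with window 12 also at 0.81 in CE-30 and window 13 at 0.81 in CE-28, window 8 is at 0.10 to 0.22, and CE-26 is at 0.24 to 0.40 in windows 2 to 5 and at 0.25 and 0.22 in windows 11 and 12.

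**Figure D4:**
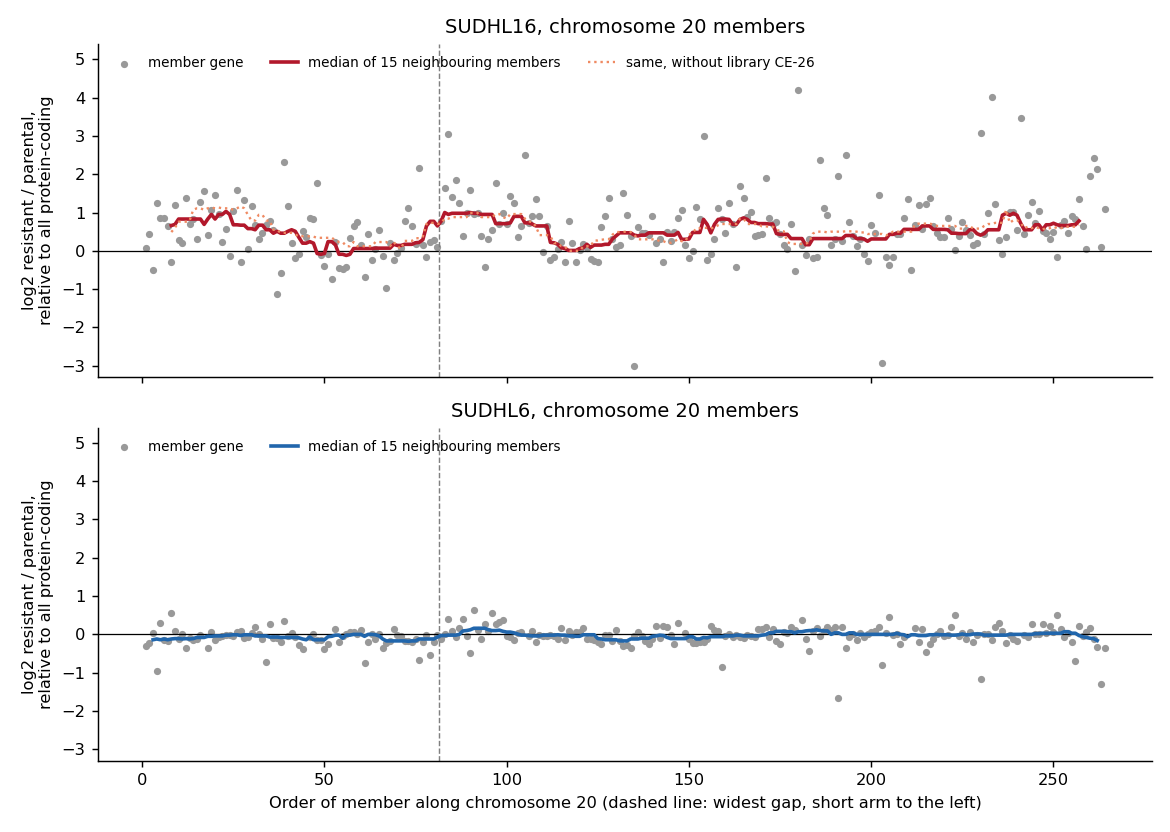
Relative log2 ratio of resistant to parental libraries (y axis) of each member (points) in order along chromosome 20 (x axis), for SUDHL16 (top) and SUDHL6 (bottom), with the median of 15 neighbouring members (lines; dotted, without CE-26) and the widest gap (dashed). In SUDHL16 the running median rises above 0.9 on both sides of a low stretch and falls after the seventh window, while in SUDHL6 it stays near 0.

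The stretch from HM13 to GSS (30 to 35 Mb) had the highest median of the windows. Of its 28 members 27 were above 0, with a median of 0.96 (1.95-fold) and an interquartile range of 0.69 to 1.42. In 19 the groups did not overlap, with the resistant libraries higher, and without CE-26 in 23. Over all genes tested the shares were 14.6% and 22.4%. Nothing is read from these counts, since the same contrast chose the chromosome and the stretch. In SUDHL6 the same stretch had a median of 0.05, with 16 of 27 tested members above 0.

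The genes of this stretch have unrelated functions. HM13, the signal peptide peptidase of the endoplasmic reticulum, was at 67.0, 58.5 and 74.5 CPM in CE-25, CE-26 and CE-27 and at 118, 123 and 119 CPM in the resistant libraries, a log2 fold change of 0.84 (SE 0.21). ASXL1, a Polycomb-associated chromatin regulator, was at 179, 105 and 167 CPM against 298, 324 and 330 CPM. AHCY, which hydrolyses S-adenosylhomocysteine, was at 135, 69.2 and 138 CPM against 301, 298 and 265 CPM. For all 3 the groups did not overlap, and the relative ratios were between 0.77 and 1.26. PLAGL2, a zinc finger transcription factor, was at 123, 63.7 and 91.9 CPM against 318, 395 and 343 CPM, a log2 fold change of 1.92 (SE 0.31). EIF2S2, the beta subunit of the initiation factor eIF2, was at 67.8, 103 and 62.1 CPM against 149, 152 and 359 CPM, so CE-30 was far above the other resistant libraries. EIF2S2 overlaps RALY, and their reads may not be separable.

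Other members of this stretch with relative ratios above 1 included MAP1LC3A, an LC3 protein of autophagy (2.49), the peroxisomal membrane protein PXMP4 (1.78), PDRG1 (1.63), NOL4L (1.58), TM9SF4 (1.41), TP53INP2 (1.35) and POFUT1, which adds fucose to Notch receptors (1.25). MAP1LC3A was low, with 2.37, 0.00 and 2.23 CPM in parental and 11.6, 6.63 and 12.4 CPM in resistant libraries. NOL4L depended on CE-26, where it was at 12.4 CPM against 0.661 and 1.92 CPM in the other parental libraries, and its relative ratio was 3.41 without that library. Smaller ratios were seen for the ubiquitin ligase ITCH (0.37, and 0.25 without CE-26), the kinesin KIF3B (0.40 and 0.23), CDK5RAP1 (0.38 and 0.21) and CBFA2T2 (0.30 and 0.60). The genes of this stretch other than HM13, COMMD7 and MAPRE1 were named after their values were seen.

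Ratios were lower past the end of the stretch, but a sharp boundary was not located. With all libraries, the running median of 15 members was 0.73 at PIGU, 0.65 at GSS, 0.22 at MMP24OS and 0.01 at SPAG4. Neighbouring members had a median absolute difference of 0.5. GSS and TRPC4AP, on either side of the 35 Mb window limit, were named after their values were seen. GSS, glutathione synthetase (chr20:34928432-34956027), was at 36.1, 24.5 and 44.6 CPM in parental and 78.3, 50.5 and 81.6 CPM in resistant libraries, with a relative ratio of 0.92 (0.77 without CE-26). TRPC4AP, the next member (chr20:35002404-35092807), was at 86.9, 69.9 and 91.9 CPM in parental and 86.5, 91.7 and 78.3 CPM in resistant libraries, with a relative ratio of -0.03 (-0.10 without CE-26). Resistant GSS levels were all above the parental levels, and those of TRPC4AP lay within the parental range. The members after TRPC4AP, with all libraries and without CE-26, included EDEM2 (0.65 and 0.41), EIF6 (-0.15 and -0.30) and UQCC1 (0.06 and 0.00). Further along were RBM12 (-0.28 and -0.52), NFS1, the mitochondrial cysteine desulfurase (0.01 and 0.12) and PHF20 (-0.22 and -0.17). Leaving out CE-26 turned the sign of ERGIC3 (-0.29 to 0.11) and of RBM39 (0.08 to -0.01). GSS and TRPC4AP both overlap MYH7B in the annotation, and whether the counting used strand is not given in the sources used here.

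Near the short-arm end, 32 of 36 members between 0 and 5 Mb were above 0 and 8 were called higher. Without CE-26 these counts were 30 and 15. Over all genes tested, 3.2% were called higher with all libraries and 6.73% without CE-26. IDH3B, a subunit of the NAD-dependent isocitrate dehydrogenase, was at 42.2, 26.5 and 42.1 CPM in parental and 90.6, 87.0 and 105 CPM in resistant libraries. PTPRA, a receptor tyrosine phosphatase, was at 53.1, 34.1 and 60.1 CPM against 140, 123 and 165 CPM, and ITPA, which removes inosine triphosphate, at 9.09, 12.7 and 12.2 CPM against 33.0, 27.8 and 46.9 CPM. The groups of each of these genes did not overlap. Members below 0 in this stretch included SOX12 (-0.50, and -0.20 without CE-26), SRXN1 (-0.29) and ATRN (-0.29). C20orf96, the first member, was at 0.07 with all libraries and -0.41 without CE-26, and PCMTD2, the last on the long arm, at 1.08, with 36.9, 17.9 and 32 CPM in parental and 48.8, 66.1 and 80.9 CPM in resistant libraries. ZNF337, the last before the widest gap, was at 0.10 with all libraries and -0.27 without CE-26.

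Single genes stood far from the shared shift. PREX1, an exchange factor that activates the GTPase Rac, was at 0.496, 2.76 and 0.186 CPM in CE-25, CE-26 and CE-27 and at 11.5, 19.4 and 16.7 CPM in the resistant libraries, a log2 fold change of 4.27 (SE 0.88). Without CE-26 it was 5.5, so the size of the ratio rests on a few reads in the parental libraries. SLCO4A1, an organic anion transporter, was at 2.92, 1.03 and 3.04 CPM against 41.8, 64.3 and 25.2 CPM, a log2 fold change of 4.09 (SE 0.48). BIRC7, an inhibitor of apoptosis protein also known as livin, was at 1.82, 3.79 and 2.54 CPM against 30.2, 45.5 and 13.3 CPM, with 3.53 (SE 0.54). These genes went from a few CPM or less to above 10 CPM in each resistant library, and CE-29 was the highest for all 3.

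LAMA5, the alpha-5 chain of laminin, was at 12.4, 26.5 and 17.9 CPM in parental and 217, 170 and 106 CPM in resistant SUDHL16 libraries, a log2 fold change of 3.14 (SE 0.39). TOX2, an HMG-box transcription factor, was at 0.827, 4.82 and 0.435 CPM against 5.49, 11.4 and 24.6 CPM, with 3.07 (SE 0.96) and 4.44 without CE-26. Both were above the parental range in every resistant library, and TOX2 by less.

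The members at the other end were few. SRC, the prototype of the non-receptor tyrosine kinases, was at 47.1, 25.8 and 62.0 CPM in parental and 7.5, 3.44 and 6.93 CPM in resistant libraries, a log2 fold change of -2.93 (SE 0.43). BCAS1 was at 34.9, 58.5 and 36.6 CPM against 4.35, 4.14 and 9.15 CPM, with -2.87 (SE 0.41). Both were thus low in all 3 resistant libraries while their neighbours on the long arm were mostly higher. The next lowest among members whose groups did not overlap without CE-26 were NAA20, the catalytic subunit of the acetyltransferase NatB (-0.91, SE 0.30), CDS2, a CDP-diacylglycerol synthase (-0.50, SE 0.32), the coactivator NCOA3 (-0.45, SE 0.30) and PMEPA1 (-0.42, SE 0.26). Without CE-26 these were -0.54, -0.73, -0.63 and -0.52. NAA20 was at 67.9, 126 and 67.5 CPM in parental and 53.4, 40.7 and 44.8 CPM in resistant libraries.

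**Figure D5:**
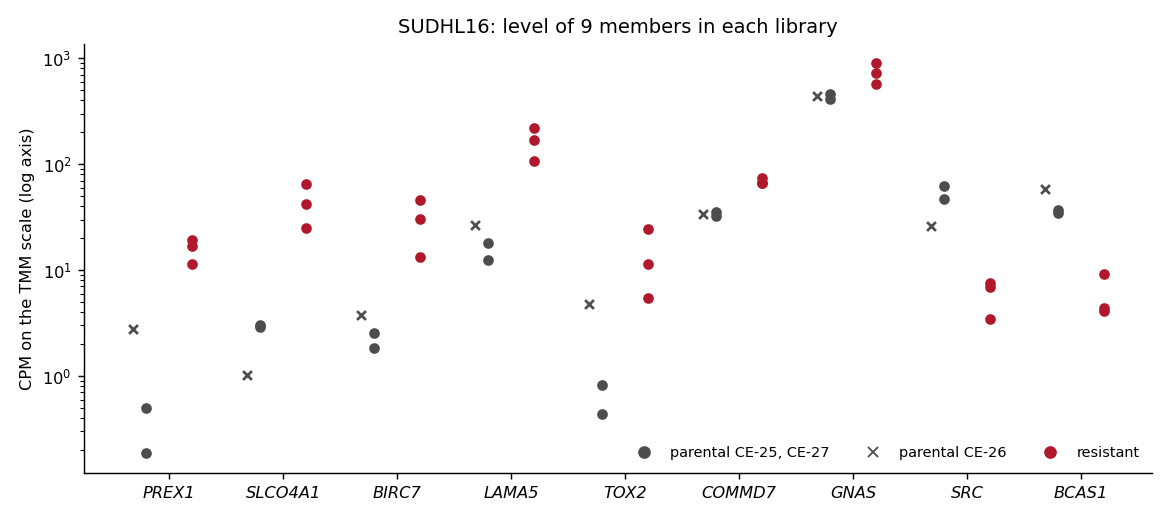
Level in CPM on the TMM scale (y axis, logarithmic) of 9 members in each SUDHL16 library, with parental CE-25 and CE-27 (grey circles), parental CE-26 (crosses) and resistant libraries (red circles). PREX1, SLCO4A1, BIRC7, LAMA5 and TOX2 lie higher in all resistant libraries, COMMD7 and GNAS by smaller steps, and SRC and BCAS1 lower.

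Among genes of lymphocyte and inflammatory signalling, 4 of 15 members were called higher, PTPRA, PREX1 and CEBPB among them, and 1 lower (SRC), with a median relative ratio of 0.75 (0.55 without CE-26) beside 0.48 over all members. Without CE-26, 5 were called higher and 1 lower. Over all members 14.0% were called higher, and 23.1% without CE-26, beside 3.2% and 6.73% of all genes tested. The shares of all genes called lower were 2.1% and 3.32%. Nothing particular to this list is read from its median or counts. CEBPB, a transcription factor of inflammatory and myeloid genes, was at 21.4, 16.9 and 14.3 CPM in parental and 95.4, 97.0 and 118 CPM in resistant libraries. JAG1, a Notch ligand, was at 2.54, 8.95 and 3.17 CPM against 19.2, 12 and 18.1 CPM and was called only without CE-26. The most abundant members of the list, the antiviral adapter MAVS and the Hippo kinase STK4, were at 0.30 and -0.42. Both were highest of the parental libraries in CE-26, with 903 and 1050 CPM, and without it they were at 0.79 and 0.10.

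Of 15 members of mitochondria and energy metabolism, IDH3B and ACSS1 were called higher, and the median was 0.64. Without CE-26 the median was 0.77, with 5 called higher. ACSS1, the mitochondrial acetyl-CoA synthetase, was at 16.8, 24.1 and 15.2 CPM in parental and 99.3, 75.4 and 86.4 CPM in resistant libraries, while the medians of the windows around it, from 20 to 25 and from 25 to 30 Mb, were 0.17 and 0.18. PRELID3B was at 0.86 and TOMM34, a cytosolic partner of mitochondrial import, at 0.69. Of 26 members of the endoplasmic reticulum, Golgi and vesicle trafficking list, VPS16, TM9SF4, SYS1 and PIGT were called higher, the median was 0.52 and 23 were above 0. Without CE-26 the median was 0.70, with 9 called higher. For both lists the share called higher over all genes tested was 3.2%, and 6.73% without CE-26. Over all members it was 14.0% and 23.1%, and nothing particular to either list is read from the counts. RPN2, a subunit of the oligosaccharyltransferase, was at 0.93, the syntaxin STX16 at 0.56 and the sorting nexin SNX5 at 0.34.

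Of 36 members of chromatin and transcription, PLAGL2, CEBPB and ZNF217 were called higher, and the median was 0.46. Without CE-26 the median was 0.51, with 7 called higher. The shares called higher were 3.2% of all genes tested and 14.0% of all members, and 6.73% and 23.1% without CE-26. Nothing particular to this list is read from its counts. ZNF217, a zinc finger repressor, was at 62.3, 37.5 and 52.4 CPM in parental and 121, 141 and 183 CPM in resistant libraries. MYBL2, a transcription factor of cell cycle genes and the member with the highest level, was at 435, 234 and 567 CPM against 994, 801 and 514 CPM, so its groups overlapped. NCOA3 lay on the other side, with 549, 335 and 515 CPM against 284, 371 and 373 CPM.

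None of the 15 members of DNA replication, repair and mitosis was called by edgeR with all libraries, 3 were called by DESeq2, 6 had an unadjusted p under 0.05, and 3 were called higher by edgeR without CE-26 (CDC25B, MAPRE1 and CHMP4B). The median of this list was 0.43, and 0.50 without CE-26, with 3 called higher. MAPRE1, the microtubule plus-end protein EB1, was at 139, 95.4 and 129 CPM in parental and 218, 317 and 222 CPM in resistant libraries. Of 20 members of RNA splicing and processing, 1 was called (PABPC1L, higher) and the median was 0.26, the lowest of the 9 lists, and without CE-26 it was 0.23, with 1 called. SNRPB, a core spliceosome protein, was at 0.69 and SRSF6 at -0.18 (-0.42 without CE-26). The 9 members of ubiquitin and protein turnover had a median of 0.32, with UBE2V1 at 0.32 and RNF114 at 0.16, and without CE-26 these were 0.51, 0.45 and 0.51, with 2 members called higher. The 7 members of ribosome and translation had a median of 0.41, with RPS21 at 0.45 and NOP56 at 0.32, and without CE-26 these were 0.35, 0.58 and 0.14, with 2 members called higher. In each of these 2 lists edgeR called 0 members with all libraries, DESeq2 called 2, and 2 had an unadjusted p under 0.05. Of all genes tested in SUDHL16, 3.2% were called higher, and 6.73% without CE-26. Nothing particular to a list is read from these medians or counts, since the same contrast chose the chromosome.

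Of the 3 members at imprinted loci, GNAS, the stimulatory G protein alpha subunit, was at 416, 435 and 464 CPM in parental and 720, 566 and 891 CPM in resistant libraries, a log2 fold change of 0.73 (SE 0.29). The median of the 3 was 0.61, and 0.49 without CE-26. BLCAP was at 37.4, 27.9 and 46.5 CPM against 54.2, 62.2 and 64.8 CPM, and L3MBTL1 at 22.4, 14.8 and 22 CPM against 20.4, 21.8 and 19.9 CPM. The groups did not overlap for GNAS and BLCAP, and for L3MBTL1 they did. None of the 3 was called by edgeR, DESeq2 called 1, and 2 had an unadjusted p under 0.05. Nothing is read from these counts either, since the same contrast chose the chromosome.

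Of the members, 133 were in no list, and several of them had large ratios. These included LAMA5, SLCO4A1, BIRC7, RGS19, a regulator of G protein signalling (2.42), B4GALT5, which makes lactosylceramide (2.37), GPCPD1, which cleaves glycerophosphocholine (2.31), the nociceptin receptor OPRL1 (2.13), the elongation factor TCEA2 (1.95) and the phospholipid transfer protein PLTP (1.90). RGS19, OPRL1 and TCEA2 lie together near the end of the long arm. OPRL1 was even among replicates, at 5.01, 4.82 and 5.09 CPM in parental and 24.7, 20.4 and 23.7 CPM in resistant libraries. From RGS19 on, the genes of this paragraph were named after their values were seen.

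The shift was found at all levels of expression. Split by mean level, the 66 members with 5.29 to 26.3 CPM had a median relative ratio of 0.38, and the next groups of 66 had 0.50, 0.56 and 0.56, up to 701 CPM for MYBL2. Without CE-26 these medians were 0.48, 0.60, 0.50 and 0.60. The ratio had a Pearson correlation of 0.28 with transcript GC content over 262 members and 0.15 over 9447 other genes, values that come from the same 6 libraries. Between neighbouring members the median absolute difference was 0.50 (263 pairs), beside 0.49 for neighbours on other chromosomes, so single genes varied around the shift as much as elsewhere. Just inside the minimum was MROH8 (5.29 CPM, log2 fold change 1.57, SE 0.90) and just outside it MCTS2 (4.92 CPM, 1.18). MROH8 was at 0 CPM in CE-26. MROH8 overlaps RPN2 and MCTS2 lies within HM13, so their reads may not be separable.

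In SUDHL6 the members as a whole were near 0. The median relative log2 ratio over the 255 members tested was -0.03, with 102 above 0, and the SD over members was 0.27 beside 0.83 in SUDHL16. The short arm was at -0.08, with 23 of 78 members above 0 (29.5%), and the long arm at -0.01, with 79 of 177 (44.6%). Of the other protein-coding genes, 50.3% were above 0. The SUDHL6 windows ran from -0.19 to 0.05. The medians per library were -0.03, -0.04 and -0.03 in the resistant and between -0.01 and 0.01 in the parental libraries. The 9 members not tested were too low in SUDHL6, among them PREX1, BIRC7 and MAP1LC3A.

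Among all 16662 genes tested in SUDHL6, 4.31% were called raised and 4.65% lowered with edgeR, and of the members 1 rose (0.392%) and 7 fell (2.75%). At an unadjusted p under 0.05 there were 140 members (54.9%), beside 56.7% of the 9279 other protein-coding genes tested at the same minimum. The groups did not overlap for 51 members with the resistant libraries higher and 85 with them lower, against 23.1% and 24.8% of all genes. The small spread between SUDHL6 libraries let changes far under 1.5-fold pass the adjusted p. Of those other protein-coding genes 2.78% were called raised and 3.28% lowered.

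COMMD7, a COMM-domain protein linked to NF-kappaB control, was the member that rose in SUDHL6. It was at 16.2, 15.8 and 15.9 CPM in parental and 23.5, 24.4 and 27 CPM in resistant libraries, a log2 fold change of 0.64 (SE 0.06, edgeR adjusted p = 6.34e-06). Without CE-12 it was 0.58, under the 1.5-fold limit. In SUDHL16 it was at 35, 34.1 and 32.2 CPM against 65.7, 73.7 and 65.7 CPM, a log2 fold change of 1.02 (SE 0.20). COMMD7 was thus higher in every resistant library of both lines.

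LAMA5 fell in SUDHL6, from 24.2, 24.9 and 24.8 CPM to 11.5, 10.0 and 11.2 CPM, a log2 fold change of -1.17 (SE 0.07, edgeR adjusted p = 3.76e-08). NRSN2, a neuronal vesicle membrane protein, fell from 7.40, 6.49 and 7.99 CPM to 3.53, 4.13 and 3.55 CPM, a log2 fold change of -0.96 (SE 0.12, edgeR adjusted p = 3.46e-05). Both had the opposite direction in SUDHL16, where NRSN2 was at 14.2, 10.3 and 14.6 CPM in parental and 42.5, 27.4 and 29.7 CPM in resistant libraries. The difference between the lines was not tested. MYT1, a zinc finger factor of neural cells, fell from 1.56, 1.42 and 1.28 CPM to 0.547, 0.520 and 0.661 CPM. This was a log2 fold change of -1.30 (SE 0.23, edgeR adjusted p = 6.35e-04), at levels near the limit of detection.

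PEDS1-UBE2V1, a read-through transcript, fell from 28.7, 32.7 and 16.6 CPM to 6.34, 14.8 and 3.08 CPM, a log2 fold change of -1.67 (SE 0.39, edgeR adjusted p = 0.00441). Its reads lie in UBE2V1 and PEDS1, which had log2 fold changes of 0.19 and 0.20, so its value is uncertain. The other members that fell were PKIG, an inhibitor of protein kinase A (-0.85, edgeR adjusted p = 8.74e-09), DZANK1 (-0.75, edgeR adjusted p = 0.00305) and ZNF512B (-0.71, edgeR adjusted p = 1.94e-05). Of the 9 lists, chromatin and transcription had 1 member lowered in SUDHL6, ZNF512B, and in the other 8 both edgeR and DESeq2 called 0, although between 2 and 15 members of each had an unadjusted p under 0.05.

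SLCO4A1 and CEBPB, which had large ratios in SUDHL16, had small ones in SUDHL6. SLCO4A1 was at 12.4, 11.2 and 11.7 CPM against 11.6, 10.6 and 9.55 CPM (-0.15, edgeR adjusted p = 0.206). CEBPB was at 28.1, 28 and 26.9 CPM against 22.9, 20.6 and 21.4 CPM (-0.36, edgeR adjusted p = 3.20e-04), under the 1.5-fold limit. SRC and BCAS1 were at most 1.3 CPM in every SUDHL6 library, so these genes were near the limit of detection in that line. Their log2 fold changes there were -0.03 (SE 0.40, edgeR adjusted p = 0.959) and -0.80 (SE 0.36, edgeR adjusted p = 0.102). The ratio between lines of levels set by different kits is not given.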

How the data were processed

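RNA was measured in 12 libraries, 3 per group, with groups taken from the labels. The authors trimmed reads (TrimGalore), aligned them to GRCh38 (HISAT2), ran StringTie, and deposited raw counts per gene for each library, without normalization. The counting tool, its annotation and its strand setting are not given in the sources used here. Of 60675 identifiers, 56558 were matched to GENCODE 44, which gave symbols, types and positions. Each line was fitted alone with edgeR 4.0.16 (R 4.3.3) after filterByExpr and TMM scaling, with the two-sided quasi-likelihood test. Values per library are CPM on the TMM scale, and library medians used log2(CPM + 0.5). Self-tests ran on simulated data. Counting error is smallest in the deepest libraries and largest in CE-26.

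Alternatives were DESeq2 1.42.0, limma 3.58.1 (voom with quality weights), scaling by the upper quartile, all genes with a count in place of the filter, tests restricted to protein-coding genes, other CPM minimums, no centring, classes of GC content and length, the genes left out by rule, each library left out, and, chosen after seeing the data, removal of the 86 members overlapping another protein-coding gene. Python 3.11.15, pandas 2.3.3, numpy 2.4.6 and matplotlib 3.10.9 were used.

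The members and the 9 gene lists, written from general knowledge, were chosen with earlier results of these data known. The named genes are the 6 highest and 6 lowest members by SUDHL16 ratio whose groups do not overlap without CE-26, the 2 most abundant members of each list, up to 4 called members per direction in SUDHL6, the first and last member and those beside the widest gap, and those nearest the minimum. A result under this rule is not reported here. Others were named after their values were seen. No pair of libraries was identical.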

Additional observations from a re-analysis of the deposited data

Results flagged for a closer look

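Among the genes named by rule, 5 had resistant libraries that lay above the parental libraries in SUDHL16 and below them in SUDHL6, without overlap. The log2 fold changes in SUDHL16 and SUDHL6 were 3.14 and -1.17 for LAMA5, 1.33 and -0.96 for NRSN2, 1.15 and -0.37 for PCMTD2, 0.84 and -0.12 for HM13, and 0.73 and -0.12 for GNAS. The difference between the lines was not tested for any of them. Over the 255 members tested in both lines, 35 were higher in resistant SUDHL16 and lower in resistant SUDHL6 without overlap, 24 were higher in both, 3 were lower in both and 0 were lower in SUDHL16 and higher in SUDHL6. In the same order, these patterns held for 4.79%, 4.13%, 3.17% and 2.87% of the 13576 genes tested in both lines. Nothing is read from the counts, since the SUDHL16 contrast chose the chromosome.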

How the results depend on the processing

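The median relative log2 ratio of members in SUDHL16 (0.48) was 0.54 with voom and quality weights, 0.55 without centring and 0.49 to 0.55 with each library left out. The short arm (0.34) was 0.41 without centring, 0.46 at a minimum of 20 CPM and 0.31 to 0.40 with a library left out. The long arm (0.55) was 0.65 without members overlapping another protein-coding gene and 0.52 to 0.59 with a library left out. The members above 0 (213) numbered 207 to 217 with a library left out. The 39 members called in SUDHL16 became 75 with DESeq2, 98 with voom and 15 to 63 with a library left out (18 without CE-25, 63 without CE-26, 17 without CE-27, 15 without CE-28, 15 without CE-29 and 16 without CE-30). In SUDHL6 the median (-0.03) was -0.02 at 20 CPM, -0.04 without overlapping members and -0.04 to -0.02 with a library left out, and the 8 calls became 8 to 10. The medians over all members, and over each arm in SUDHL16, kept their sign, and so did the called genes among those named by rule. Other called genes were not checked for this. The median of the 7 members between 10 and 15 Mb in SUDHL16 went from -0.09 to 0.38 without CE-26. Named genes that were not called also changed sign, 4 in SUDHL16 and 3 in SUDHL6. Without CE-26 the log2 fold changes of STK4 (-0.35), ZNF337 (0.17) and C20orf96 (0.14) were 0.14, -0.23 and -0.37, with voom they were 0.05, -0.13 and -0.30, and that of SRC in SUDHL6 (-0.03) was 0.35 without CE-10. Of the alternatives for named genes, 319 in SUDHL16 stayed within the spread and 5 moved, and in SUDHL6 COMMD7 lost its call (0.58) and BCAS1 gained one (-1.28), both without CE-12, while 295 stayed. The causes were not tested. Depth limits CE-26 most. No paired analysis was possible because the labels carry no replicate numbers.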
